A study of Mus musculus with 8 samples.

Results

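EPSC-NSC hybrid cells were compared with E14 embryonic stem cells (ESCs) over all genes with a mean level of at least 1 FPKM (fragments per 1000000 mapped, divided by the transcript's length in kilobases) in either group. The rule takes 12021 of the 24354 genes listed in the series and uses the level alone, without regard to any difference between the groups, and the comparison rests on 4 of the 8 libraries. In the study, poly-A RNA of 4 cell types was sequenced with 2 libraries each, to ask whether somatic cells fused with extended pluripotent stem cells (EPSCs) take on their expression state. The hybrid cells were line 2-2 at passage 10, near-tetraploid cells made by fusing C57BL/6 EPSCs with OG2/ROSA26 neural stem cells (NSCs) with polyethylene glycol, and they were grown in LCDM, an N2B27-based medium that contains CHIR99021, minocycline, human LIF and dimethindene maleate. The ESCs were the E14 line, unfused cells grown in DMEM with serum and LIF. Both were kept on mitomycin C-inactivated fibroblasts from C3H embryos. Line, fusion, ploidy and medium differed together between the 2 groups, so their contributions cannot be told apart. Both libraries of a group came from 1 line, so the spread is that of repeated libraries and may be technical.

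ESCs held in serum and LIF are kept from differentiating mainly through STAT3, a factor that LIF activates through its receptor and JAK kinases. EPSCs are cultured to retain a potency toward embryonic and extraembryonic tissue, and CHIR99021 in their medium inhibits the kinase GSK3 and thereby raises β-catenin, the effector of Wnt signalling. When a pluripotent cell is fused with a somatic cell, the factors of the pluripotent partner generally silence the somatic programme and reopen the pluripotency genes of the somatic genome.

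The depth derived from the steps between low FPKM values was 23.9 and 22.7 in units of 1000000 fragments for the hybrid libraries and 32.6 and 29.9 for the ESC libraries, and a transcript of 2 kb with 3 fragments would be at 0.0511 to 0.0734 FPKM, a limit for counting error alone. The median absolute difference between the 2 libraries of a group was 0.13 on the log2(FPKM + 1) scale in hybrid cells and 0.05 in ESCs, and 50 members differed by more than 2-fold between the hybrid libraries against 29 between the ESC libraries. The labelled cell types were checked against markers. The 6 pluripotency markers (Pou5f1, Sox2, Nanog, Sall4, Zfp42 and Utf1) summed to 2029.6 and 1715 FPKM in hybrid cells and 2399 and 2364 FPKM in ESCs, and 8 NSC markers summed to 12.4 and 11 FPKM and 12.7 and 13 FPKM, against 4010.1 and 3963 FPKM in the NSC libraries. The 10 fibroblast markers (Thy1, Pdgfrb, Dcn, Lum, Twist1, Twist2, Prrx1, Col1a1, Col1a2 and Col3a1) summed to 293 and 219 FPKM in hybrid cells and 14.1 and 15.2 FPKM in ESCs, both groups having been cultured on fibroblasts, and the first hybrid library held more of them than the second.

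Differences between the groups were widespread. With limma on log2(FPKM + 1), 8266 of the 12021 members (68.8%) passed a Benjamini-Hochberg adjusted p under 0.05, 4443 of them (37%) higher in hybrid cells and 3823 (31.8%) lower. The median log2 fold change of all members was 0.04. Of the members, 838 reached the level of 1 FPKM in hybrid cells only and 628 in ESCs only, and for such genes the direction was largely fixed by the level for membership. Among the called genes, 979 (8.14%) were higher and 816 (6.79%) were lower by more than 2-fold on this scale. The fold rule of the study's methods was read as more than 3 FPKM on average in whichever group is higher and means that differ by more than 3-fold. It was passed by 482 genes (4.01%) that were higher in hybrid cells and 402 (3.34%) that were lower. Read instead as a mean over both groups above 3 FPKM, the rule was passed by 336 and 298 genes. Of the 884 genes, limma called 855, and the libraries of the groups did not overlap in any of those 855. Over all members the libraries did not overlap in 10267 genes (85.4%). For 2 libraries against 2, an exact permutation test of a single gene cannot give a two-sided p below 0.333, so calls rest on the spread that limma pools over genes.

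**Figure D1:**
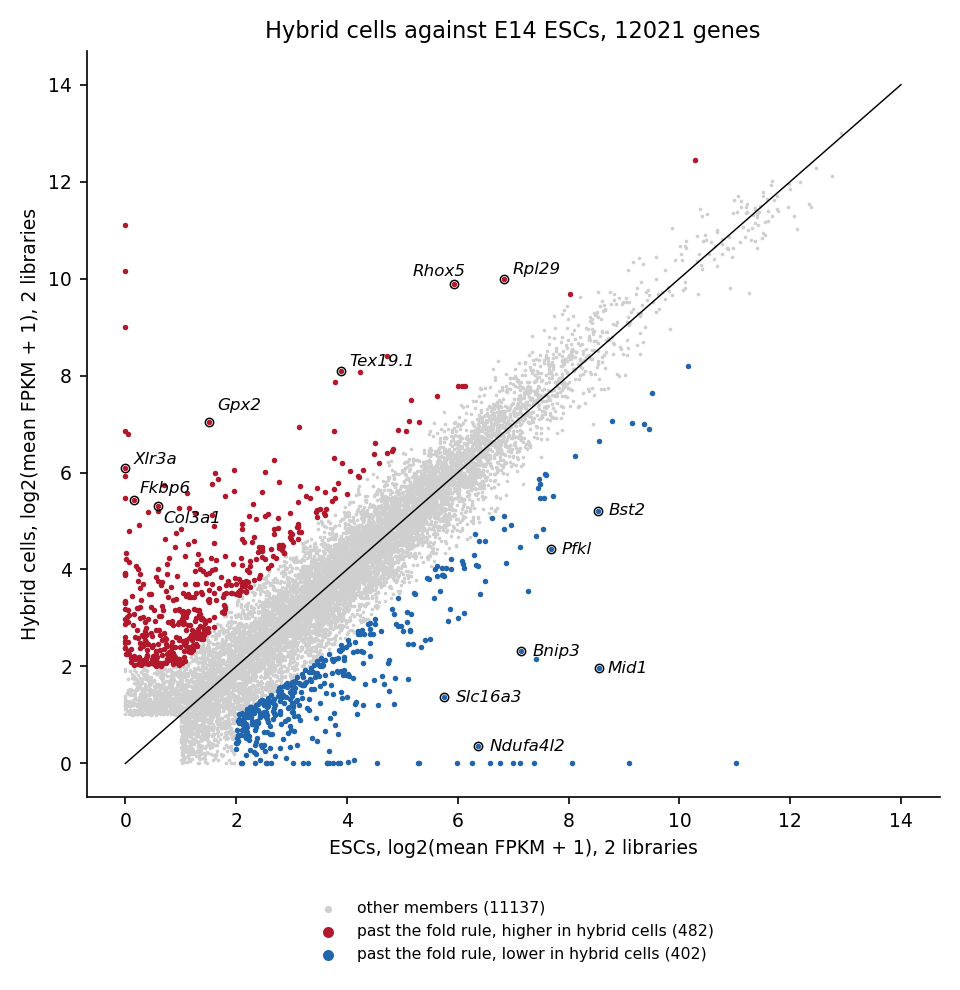
Mean FPKM of the 2 hybrid libraries (y axis) against that of the 2 ESC libraries (x axis), both as log2(mean FPKM + 1), for the 12021 members. Red and blue points are the 482 and 402 genes past the fold rule, the diagonal marks equal levels, and circles mark named genes, among them Mid1 at 128-fold lower and Gpx2 at 71.3-fold higher in hybrid cells.

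The 10 genes with the largest increase included products of the germline and of the X chromosome, an antioxidant enzyme, a lipoprotein and a collagen. Gpx2, an enzyme that reduces hydrogen peroxide with glutathione (chr12:76792335-76795554 in GRCm38.p6), was at 124 and 139 FPKM in hybrid cells against 1.73 and 1.96 FPKM in ESCs. The groups lay far apart, with a log2 fold change of 5.54 ± 0.08 (SE) and a Benjamini-Hochberg adjusted p of 8.8e-08 in limma, and the 2 EPSC libraries were at 236 and 217 FPKM. Rec114, a protein needed for the DNA breaks of meiosis (chr9:58652856-58822706), was at 33.7 and 37 FPKM in hybrid cells against 0.305 and 0.331 FPKM in ESCs, and Apoa2, an apolipoprotein of high-density lipoprotein (chr1:171221564-171226379), was at 33.1 and 25.7 FPKM in hybrid cells and 0.178 and 0.199 FPKM in ESCs. For both genes hybrid cells lay beside EPSCs, which were at 29.1 and 36.6 FPKM for Rec114 and 35.6 and 28 FPKM for Apoa2. Pnma5, a gene of a family derived from retrotransposons (chrX:73033981-73039721), was at 47.2 and 57.8 FPKM in hybrid cells against 0.645 and 0.591 FPKM in ESCs, and the uncharacterised gene 1700013H16Rik (chrX:53742901-53757970) was at 109.5 and 112 FPKM in hybrid cells against 0.0589 and 0 FPKM in ESCs. Whereas Gpx2 was lower in hybrid cells than in EPSCs, these 2 X-linked genes were higher, Pnma5 by a log2 fold change of 2.05 ± 0.18 (SE). Xlr3a and Fkbp6 are described with the germline genes and Col3a1 with the matrix genes.

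Eif3j1, also among the 10, is a near-identical copy of another gene, and its value depends on how reads were divided between the copies. Eif3j1 and Eif3j2 encode the same subunit of translation initiation factor eIF3. Eif3j1 was at 29.9 and 23.6 FPKM in hybrid cells and 0.0436 and 0.0477 FPKM in ESCs, Eif3j2 was at 30 and 27.8 FPKM and 17.5 and 16.7 FPKM, and within the 2 NSC libraries the level moved from one copy to the other, with 0.0488 and 20.2 FPKM for Eif3j1 and 20.2 and 0.0947 FPKM for Eif3j2. Both Eif3j copies are therefore given as uncertain.

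Mid1 showed the largest decrease among protein-coding genes. This X-linked ubiquitin ligase of microtubules (chrX:169685199-169990798) was at 2.68 and 3.12 FPKM in hybrid cells against 372 and 372 FPKM in ESCs, a log2 fold change of -6.58 ± 0.08 (SE) with a Benjamini-Hochberg adjusted p of 6.4e-08 in limma. The EPSC libraries, at 3.47 and 3 FPKM, and the NSC libraries, at 6.12 and 6.29 FPKM, lay near the hybrid level, so the ESC libraries stood apart from the other 6. Fxyd6, a regulator of the sodium pump (chr9:45369470-45396159), was at 3.52 and 3.32 FPKM in hybrid cells against 173 and 166 FPKM in ESCs. Ndufa4l2 and Bnip3 are described below with the metabolic genes, and Gm7367, annotated as a transcribed pseudogene, was at 0.000275 and 0.00365 FPKM in hybrid cells and 34.1 and 42.1 FPKM in ESCs. As reads of a pseudogene can be divided between similar copies, its level is uncertain. The other 5 of the 10 were Mir703, Snord35a, Snora68, Mir6516 and Snora75, small RNA genes whose mature products carry no poly-A tail. All 5 were listed at 0 in both hybrid libraries. In the ESC libraries Mir703 was at 316 and 214 FPKM, and Snord35a was at 185 and 92.1 FPKM. Of the 35 small nucleolar RNA genes among the members, 21 were listed at 0 in both libraries of a group, as were 10 of the 12 microRNA genes, so these values say little of the transcripts themselves.

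Nanog was not called between the groups and Pou5f1 was called lower under some alternatives only, whereas Klf4, Klf5 and Tfcp2l1 were higher and Tcl1, Fgf4 and Zfp42 were lower. Of 23 pluripotency factors, 7 were higher in hybrid cells, 7 were lower and 9 did not pass the test, near the 37% and 31.8% of all members. Pou5f1, which encodes OCT4, was at 1009 and 742 FPKM in hybrid cells against 1106 and 1048 FPKM in ESCs, and its log2 fold change of -0.32 did not pass the test (limma, Benjamini-Hochberg adjusted p = 0.089). Pou5f1 was called lower without the first hybrid library, at -0.54, as well as with the replicate number as a block (adjusted p = 0.0314) and with either scaling alternative, and so was Klf2. Nanog was at 315 and 327 FPKM in hybrid cells against 310.2 and 307 FPKM in ESCs and likewise was not called, although with quantile normalization it was called lower at a log2 fold change of -0.16, while Sox2, at 167 and 161 FPKM in hybrid cells and 181 and 204 FPKM in ESCs, was slightly lower, a call that was lost without the second hybrid or the second ESC library. Among the naive factors, Esrrb, Klf4, Klf5, Tbx3 and Tfcp2l1 were higher, by log2 values of 0.43, 0.71, 0.73, 0.68 and 0.88. Other naive factors did not share this direction, since Klf2, Prdm14 and Nr5a2 were not called, with log2 fold changes of -0.35, -0.03 and 0.11, and Zfp42 was lower. Dppa3, a maternal protein that protects DNA from demethylation in the zygote, showed the largest increase of the list, at 74.9 and 70.9 FPKM in hybrid cells against 31.7 and 32.2 FPKM in ESCs. Zfp42, Sall4, Utf1 and the growth factor Fgf4 were lower, with log2 fold changes of -0.66, -0.66, -0.63 and -0.73. Tcl1, a cofactor of the kinase AKT, fell most, with 55.9 and 45 FPKM in hybrid cells against 175 and 169.5 FPKM in ESCs. The groups did not overlap for Tcl1 or Dppa3, as for 85.4% of all members. Hybrid cells were close to the EPSC libraries, which were at 61.4 and 52 FPKM for Tcl1 and 88 and 67.1 FPKM for Dppa3.

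Axin2 and Cdx1, targets of the Wnt pathway that CHIR99021 acts on, were higher in hybrid cells, while Nodal and its inhibitors Lefty1 and Lefty2 were lower. Of 20 listed targets of Wnt, 12 reached the level for membership. Of these, 8 were higher and 1 was lower, beside 37% and 31.8% of all members, with a median of 0.35. Of the 12, 2 reached 1 FPKM in hybrid cells only, Sp5 being one of them, and 1, Msx2, in ESCs only, and among the other 9, 6 were higher and none was lower. The 8 increases became 4, a share near the background, without the first ESC library and 5 without the first hybrid library. Sp5, a transcription factor that Wnt signals induce directly, was at 8.6 and 7.41 FPKM in hybrid cells and 0.596 and 0.597 FPKM in ESCs, and its direction was fixed by the level for membership. Axin2, a feedback inhibitor of the pathway, was at 12 and 8.85 FPKM in hybrid cells against 4.06 and 4.02 FPKM in ESCs, a log2 fold change of 1.17 ± 0.12 (SE, limma, Benjamini-Hochberg adjusted p = 0.00014), and the homeobox gene Cdx1 was at 10.9 and 12.8 FPKM in hybrid cells against 2.71 and 2.74 FPKM in ESCs. The libraries of the groups did not overlap for Axin2 or Cdx1, as for 85.4% of all members. Lef1, at 3.37 and 0.766 FPKM in hybrid cells and 2.29 and 1.79 FPKM in ESCs, and Notum, at 18.1 and 12.4 FPKM in hybrid cells against 12.6 and 13.3 FPKM in ESCs, did not pass the test, and Msx2 was at 0.468 and 0.359 FPKM in hybrid cells against 1.42 and 1.82 FPKM in ESCs.

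Both media contain LIF. Of 15 genes of the LIF pathway, 7 were higher in hybrid cells and 2 were lower, beside 37% and 31.8% of all members, so the increases were near the background. Socs3, the feedback inhibitor that STAT3 induces, was at 40 and 41.8 FPKM in hybrid cells and 7.65 and 7.74 FPKM in ESCs and differed by 2.27 ± 0.08 (SE, limma, Benjamini-Hochberg adjusted p = 1.9e-06). Stat3 itself was at 44.2 and 39.7 FPKM in hybrid cells against 19 and 18.9 FPKM in ESCs, and Osmr, a receptor of the same cytokine family, was at 3.61 and 2.7 FPKM in hybrid cells against 0.146 and 0.24 FPKM in ESCs. Osmr reached 1 FPKM in hybrid cells only, so its direction was largely fixed by the level for membership. The receptor subunits Lifr and Il6st and the kinase Jak1 were not called, with log2 fold changes of -0.23, 0.01 and 0.12. The kinase gene Pim3 was lower, at 54.6 and 46.4 FPKM in hybrid cells and 96 and 95.8 FPKM in ESCs. In comparison with EPSCs, which were at 54.2 and 50.1 FPKM, Socs3 was lower in hybrid cells.

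The ligand gene Nodal and the inhibitor genes Lefty1 and Lefty2 were lower in hybrid cells. Of 14 genes of Nodal and BMP signalling, 8 were lower and 3 were higher, beside 31.8% and 37% of all members, with a median of -0.71. The 3 increases were those of Id3, Inhbb (1.03) and Smad7 (0.32). Lefty1, a secreted inhibitor of Nodal that Nodal itself induces, was at 1.43 and 1.26 FPKM in hybrid cells against 27.2 and 28.2 FPKM in ESCs, a log2 fold change of -3.61 ± 0.15 (SE, limma, Benjamini-Hochberg adjusted p = 3.1e-06). The ligand Nodal was at 25.3 and 22.1 FPKM in hybrid cells against 69.8 and 71.5 FPKM in ESCs, and the inhibitor Lefty2 was at 24 and 13 FPKM in hybrid cells and 44.2 and 43.9 FPKM in ESCs. The BMP side was mixed, since Id3, a target of BMP, was at 145 and 85.4 FPKM in hybrid cells against 32.3 and 32.5 FPKM in ESCs, whereas the ligand Bmp4 was at 44.7 and 34.8 FPKM in hybrid cells against 75.5 and 76.1 FPKM in ESCs and the target Id1 was not called (0.13). Among 19 genes of ERK feedback and the immediate early response, 5 were higher, 4 were lower and 10 were not called, and both shares lay below the 37% and 31.8% of all members. Etv4 was at 84.9 and 68.4 FPKM in hybrid cells and 34.4 and 33.2 FPKM in ESCs and Fosb was at 15.3 and 7.86 FPKM in hybrid cells against 3.2 and 3.68 FPKM in ESCs, while Myc was at 12.5 and 8.63 FPKM in hybrid cells against 21.5 and 23.6 FPKM in ESCs. The feedback genes Spry2, Dusp6 and Spred1 were not called, with log2 fold changes of 0.01, 0.19 and 0.07. Leaving out the second hybrid library raised the count of increases in this list from 5 to 8.

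**Figure D2:**
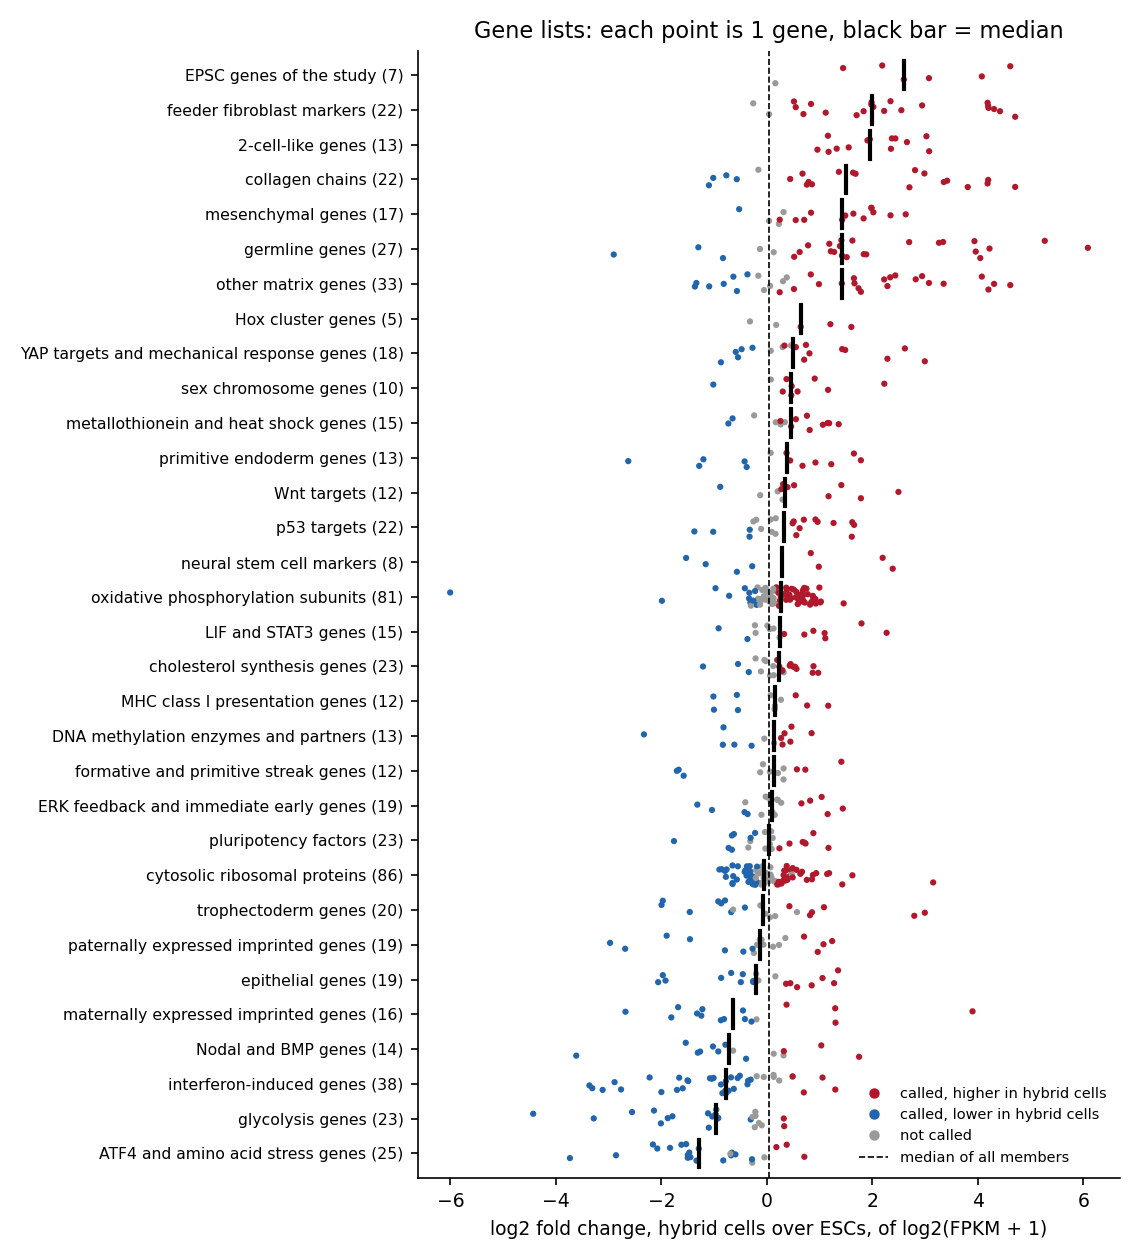
Log2 fold change (x axis, hybrid cells over ESCs on the log2(FPKM + 1) scale) of each measured gene of 32 gene lists, sorted by median, with the number of genes in parentheses. Red and blue points are genes called by limma, grey points were not called, black bars are list medians, and the dashed line is the median of all members at 0.04. The list of ATF4 genes has the lowest median at -1.29 and the 7 EPSC genes the highest at 2.59.

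Many genes of the germline were higher in hybrid cells. These genes serve meiosis, the piRNA pathway or germ cell specification, and in ESCs many of them are held silent by DNA methylation or by repressors such as PRC1.6. Of 27 measured members out of 35 listed, 22 were higher in hybrid cells, 3 were lower and 2 were not called, beside 37% and 31.8% of all members. Of the 27, 13 reached 1 FPKM in hybrid cells only and had to be higher there, and among the other 14, 9 were higher and 3 were lower. The median log2 fold change was 1.42, or 1.41 without the 4 genes listed at 0 in both ESC libraries. Summed over the list, the libraries were at 1572 and 1626 FPKM in hybrid cells, 224 and 224 FPKM in ESCs, 627 and 763 FPKM in EPSCs and 18.5 and 18.1 FPKM in NSCs, and Rhox5 contributed most of the sum in hybrid cells. The number of increases was 22 under each alternative of scaling, pseudocount or block and without a filter. The filter of at least 3 FPKM removes list members and is not covered by that count.

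Rhox5, a homeobox gene on the X chromosome, was at 952 and 953 FPKM in hybrid cells and 59.8 and 60.9 FPKM in ESCs. Tex19.1, which guards germ cells and placenta against retrotransposons (chr11:121146143-121148314), was at 269.8 and 279 FPKM in hybrid cells against 14.2 and 13.4 FPKM in ESCs, and Fkbp6, a chaperone of the piRNA pathway (chr5:135291704-135351809), was at 40.3 and 43.8 FPKM in hybrid cells against 0.175 and 0.0633 FPKM in ESCs. The 3 genes differed by 3.96 ± 0.17 (SE), 4.22 ± 0.12 (SE) and 5.27 ± 0.32 (SE), and each was also above the EPSC libraries, which were at 361 and 415 FPKM for Rhox5, 109 and 147 FPKM for Tex19.1 and 3.65 and 9.56 FPKM for Fkbp6. Dazl, an RNA-binding protein of germ cell specification, was at 22 and 35.8 FPKM in hybrid cells and 2.2 and 1.89 FPKM in ESCs. Tex13, an X-linked testis gene, was at 12 and 21.7 FPKM in hybrid cells against 0.0478 and 0.0348 FPKM in ESCs, with 0.0947 and 0.159 FPKM in EPSCs and 0 FPKM listed in both NSC libraries, so the level in hybrid cells was above that of both parental cell types. Piwil2, a PIWI protein that binds piRNA, was at 8.69 and 7.37 FPKM in hybrid cells against 1.57 and 1.32 FPKM in ESCs, and the chromosome axis gene Hormad1 was at 8.58 and 9.03 FPKM in hybrid cells and 3.18 and 3.29 FPKM in ESCs. Not all meiotic genes moved this way. Sycp3, a component of the synaptonemal complex, was at 5.26 and 8.07 FPKM in hybrid cells against 54.4 and 56.5 FPKM in ESCs, a log2 fold change of -2.90 ± 0.21 (SE, limma, Benjamini-Hochberg adjusted p = 2.5e-05), and the meiotic cohesin Stag3 was at 10.4 and 13.5 FPKM in hybrid cells against 22.7 and 21.2 FPKM in ESCs. Zcwpw1, a histone reader of meiotic recombination, was lower as well, at 3.2 and 4.36 FPKM in hybrid cells and 10.6 and 10.8 FPKM in ESCs. Ddx4, the helicase VASA, was not called, at 6.03 and 5.48 FPKM in hybrid cells against 5.19 and 5.17 FPKM in ESCs.

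Xlr3a had the largest increase of the germline list. The Xlr genes are an X-linked multigene family related to Sycp3, and the reads of near-identical copies may have been divided between them, so the levels of single members are uncertain. The list of 8 Xlr members was added after values were seen, and all 8 reached 1 FPKM in hybrid cells only, so that their direction against ESCs was fixed by the level for membership. Xlr3a (chrX:73086293-73097095) was at 71 and 62.8 FPKM in the hybrid libraries and was listed at 0 in both ESC libraries. Xlr4a was at 13.2 and 15.4 FPKM and Xlr5a at 8.4 and 9.89 FPKM, and both were listed at 0 in ESCs as well. Summed over the 9 Xlr genes in the table, the levels were 141 and 143 FPKM in hybrid cells, 0.348 and 0.436 FPKM in ESCs, 17 and 20.2 FPKM in EPSCs and 1.36 and 1.17 FPKM in NSCs, and the hybrid libraries lay above both parental types. Against EPSCs, limma called 8 of the 8 members higher in hybrid cells. In that comparison 23.7% of all members were called higher and 23.5% lower. The choice of members through their hybrid level favours the higher direction here too, so the count is given as a description only. The 7 Rhox members, another X-linked cluster in a list that was likewise added later, were called higher than in ESCs, beside 37% of all members. Of these 7, 4 reached 1 FPKM in hybrid cells only, and the other 3 were higher. Rhox1 was at 6.73 and 9.98 FPKM in hybrid cells against 0.175 and 0.237 FPKM in ESCs and Rhox9 at 7.42 and 14.7 FPKM in hybrid cells and 5.85 and 4.92 FPKM in ESCs.

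**Figure D3:**
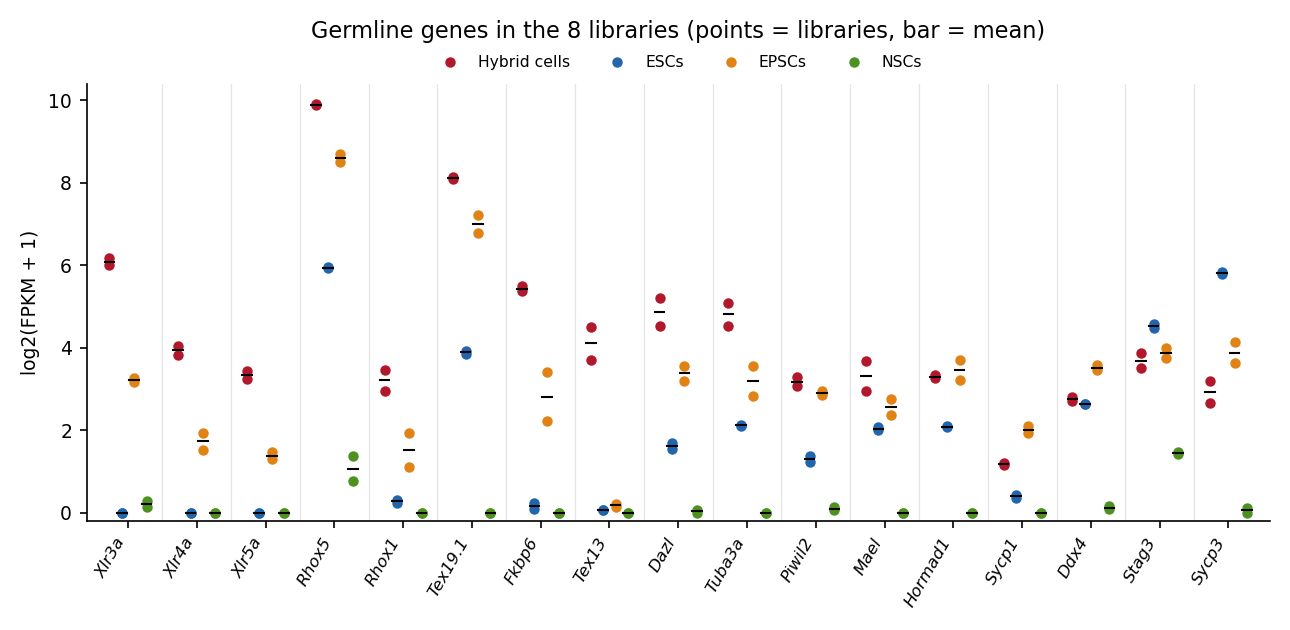
Level of 17 germline genes in each of the 8 libraries as log2(FPKM + 1), with 2 points per cell type and a bar at their mean. Hybrid cells stand above ESCs from Xlr3a to Sycp1, are at a like level for Ddx4, and stand below them for Stag3 and Sycp3.

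Promoters of germline genes often carry an E-box (CACGTG) and an E2F-type motif (TCCCGC), the letters bound by subunits of PRC1.6, and these were searched on both strands in RefSeq promoters of GRCm38.p6, from 250 bases before to 50 bases after the start. Of the 23 list members with a promoter in that table, 9 (39.1%) held the E-box, against 8.09% of all 27025 genes in the table and 12.3% of the 9577 members found there. The E2F motif was in 9 (39.1%), against 22.1% of all genes and 40.9% of the members, a share near that of the members. The E-box reads the same on both strands, and the matches of the 2 motifs do not overlap in the promoters shown. Among the 19 of them that were higher in hybrid cells, 6 held each motif. Sycp3 and Stag3, which were lower, held both as well. The promoters of the genes that were higher and held both motifs are shown with the motifs in capitals, because they are the ones in which both letters and increase meet. Mael, a piRNA pathway gene (1.27 on the log2 scale), lies at chr1:166238695-166238994, minus strand, Hormad1 (1.21) at chr3:95559427-95559726, plus strand, and Sycp1, the transverse filament of the synaptonemal complex (0.78), at chr3:102936051-102936350, minus strand.
Mael: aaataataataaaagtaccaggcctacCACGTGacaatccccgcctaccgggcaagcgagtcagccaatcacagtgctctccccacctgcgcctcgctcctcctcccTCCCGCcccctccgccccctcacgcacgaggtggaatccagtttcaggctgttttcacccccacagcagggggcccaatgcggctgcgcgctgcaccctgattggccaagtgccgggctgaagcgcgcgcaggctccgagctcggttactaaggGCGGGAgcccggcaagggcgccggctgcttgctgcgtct
Hormad1: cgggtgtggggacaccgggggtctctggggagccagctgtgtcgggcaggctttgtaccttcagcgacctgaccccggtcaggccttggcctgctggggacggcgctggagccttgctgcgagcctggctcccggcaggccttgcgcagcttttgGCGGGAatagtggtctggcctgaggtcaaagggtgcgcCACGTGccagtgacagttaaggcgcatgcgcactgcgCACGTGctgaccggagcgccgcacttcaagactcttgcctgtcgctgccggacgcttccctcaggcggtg
Sycp1: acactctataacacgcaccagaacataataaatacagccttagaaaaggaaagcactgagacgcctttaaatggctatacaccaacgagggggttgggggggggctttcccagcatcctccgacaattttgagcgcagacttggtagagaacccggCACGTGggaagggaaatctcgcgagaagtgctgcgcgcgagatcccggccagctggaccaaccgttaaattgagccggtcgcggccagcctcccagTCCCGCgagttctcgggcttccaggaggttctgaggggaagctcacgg
In Hormad1 an E-box begins 20 bases and another 57 bases before the start, in Sycp1 the E-box begins 94 bases before it, and in Mael 223 bases before it. A match describes these letters only.

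The 2-cell-like genes that reached the level for membership did so in hybrid cells only. In ESC cultures a small and changing share of cells passes through a state that resembles the 2-cell embryo and is marked by Zscan4 and its companions, and in bulk RNA more such cells and more RNA per cell cannot be told apart. All 13 members were below 1 FPKM on average in ESCs, so their direction was fixed by the choice of members and their levels are given as a description. Zscan4d, a telomere and genome stability factor, was at 8.16 and 10.6 FPKM in hybrid cells against 0.221 and 0.223 FPKM in ESCs. Zscan4c was at 8.86 and 11.8 FPKM in hybrid cells against 0.412 and 0.353 FPKM in ESCs. Tcstv1 was at 2.71 and 3.03 FPKM in the hybrid libraries and listed at 0 in both ESC libraries. The family is a tandem cluster of similar copies, so the split between its members is uncertain, but the summed level of the list was 52.4 and 65.7 FPKM in hybrid cells and 2.32 and 2.28 FPKM in ESCs. The 2 EPSC libraries differed from each other, at 20.9 and 55 FPKM. Against EPSCs, limma called 4 of the 13 genes higher in hybrid cells, beside 23.7% of all members. The choice of members through hybrid cells favours that direction as well.

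The genes that write, read and remove DNA methylation are given singly, since their counts were near those of all members. Of 13 genes, 6 were higher and 5 were lower, beside 37% and 31.8% of all members. Dnmt3l, the catalytically inactive partner of the de novo methyltransferases, was at 69.9 and 16.8 FPKM in hybrid cells and 179 and 176 FPKM in ESCs, so the 2 hybrid libraries differed strongly from each other while both lay below ESCs. Dnmt3a was at 7.1 and 4.4 FPKM in hybrid cells against 10.9 and 10.5 FPKM in ESCs, whereas Dnmt3b was at 90 and 70.8 FPKM in hybrid cells against 44.2 and 43.7 FPKM in ESCs. The maintenance enzyme Dnmt1 and its recruiter Uhrf1 were higher, by 0.27 and 0.44. Among the demethylating dioxygenases, Tet2 was lower (-0.84) and Tet1 was slightly higher (0.30).

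Imprinted genes were mostly lower where they are expressed from the maternal allele. Of 16 such genes, 11 were lower and 4 were higher, beside 31.8% and 37% of all members, with a median of -0.63. The noncoding RNAs of the Dlk1-Dio3 locus moved together, with Meg3 at 30.1 and 23.7 FPKM in hybrid cells and 63.9 and 65.4 FPKM in ESCs, Rian at 21.6 and 13.8 FPKM in hybrid cells against 57.7 and 57.5 FPKM in ESCs and Mirg at 2.14 and 2.09 FPKM in hybrid cells against 18.8 and 19.2 FPKM in ESCs. Cdkn1c, an inhibitor of cyclin-dependent kinases, was at 3.7 and 3.12 FPKM in hybrid cells and 14.1 and 14.8 FPKM in ESCs, and Phlda2, a regulator of placental growth, was at 27.2 and 32.8 FPKM in hybrid cells against 79.1 and 73.7 FPKM in ESCs. H19 went the other way, from 1.6 and 1.17 FPKM in ESCs to 40.3 and 29.3 FPKM in hybrid cells, a log2 fold change of 3.90 ± 0.15 (SE, limma, Benjamini-Hochberg adjusted p = 2.7e-06). The growth factor gene Igf2, which shares an imprinted domain with H19 but is expressed from the paternal allele, was also higher, at 12.4 and 8.88 FPKM in hybrid cells against 3.98 and 3.79 FPKM in ESCs. Igf2r was higher, at 23.5 and 22.3 FPKM in hybrid cells and 8.63 and 8.85 FPKM in ESCs. Its antisense RNA Airn was at 1.33 and 1.3 FPKM in hybrid cells against 0.0926 and 0.11 FPKM in ESCs. Airn reached 1 FPKM in hybrid cells only, so its direction was fixed by the level for membership. As the strand setting is not known, reads of this antisense pair may not have been told apart. Of 19 paternally expressed genes, 7 were lower, 4 were higher and 8 were not called, and the share that was lower was near the 31.8% of all members. Peg10, a gene derived from a retrotransposon, was at 13.4 and 7.05 FPKM in hybrid cells against 81.1 and 86.4 FPKM in ESCs, and Impact, a regulator of translation, was at 28.9 and 26.6 FPKM in hybrid cells and 184 and 184 FPKM in ESCs. Snrpn and Peg3 were not called, with log2 fold changes of -0.19 and -0.10. H19 and Igf2 are also expressed by embryonic fibroblasts, and the part of the feeder cells in their levels was not tested.

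Most genes of glycolysis were lower in hybrid cells. Of 23 genes, 15 were lower in hybrid cells, 2 were higher and 6 were not called, beside 31.8% of all members called lower. Without the first ESC library 1 gene in place of 2 was higher. The median log2 fold change was -0.96, and over the alternatives the number of decreases lay between 14 and 18. The summed level was 8319 and 6699 FPKM in hybrid cells and 15038 and 14416 FPKM in ESCs. At the entry of the pathway, the glucose transporter genes Slc2a1 and Slc2a3 were at 104 and 120.1 FPKM in hybrid cells against 223 and 219 FPKM in ESCs for Slc2a1 and at 241 and 268 FPKM in hybrid cells against 490.4 and 475 FPKM in ESCs for Slc2a3. Pfkl, the liver isoform of phosphofructokinase, was at 24.2 and 16.5 FPKM in hybrid cells and 205 and 202 FPKM in ESCs, a log2 fold change of -3.28 ± 0.21 (SE, limma, Benjamini-Hochberg adjusted p = 1.5e-05). Its isoform gene Pfkp was lower too, at 22.5 and 23.9 FPKM in hybrid cells against 83.2 and 82.4 FPKM in ESCs, while Pfkm was slightly higher, at 19.3 and 19.2 FPKM in hybrid cells against 14.7 and 15.6 FPKM in ESCs. In the lower part of the pathway, Tpi1 was at 144 and 113 FPKM in hybrid cells and 593 and 544 FPKM in ESCs, Pgk1 at 225 and 173 FPKM in hybrid cells against 744 and 714 FPKM in ESCs and Gapdh at 2245 and 1900.2 FPKM in hybrid cells against 4539 and 4332 FPKM in ESCs. The pyruvate kinase gene Pkm and the enolase gene Eno1 were not called, with log2 fold changes of -0.28 and -0.23. Reads of Eno1 may have been divided with its copy Eno1b, so its level is uncertain. Eno1b was at 146 and 106 FPKM in hybrid cells against 365 and 332 FPKM in ESCs. At the exit, the lactate dehydrogenase genes Ldha and Ldhb were at 363 and 222 FPKM in hybrid cells and 1175 and 1118 FPKM in ESCs for Ldha and at 109.8 and 126 FPKM in hybrid cells against 712 and 682 FPKM in ESCs for Ldhb. The lactate exporter Slc16a3 (MCT4) was at 2.14 and 1 FPKM in hybrid cells against 53.4 and 52.7 FPKM in ESCs, 33.8-fold lower, whereas the transporter Slc16a1 (MCT1) was at 35.7 and 36.9 FPKM in hybrid cells and 29.7 and 28.1 FPKM in ESCs. Hybrid cells were also below EPSCs in 15 of the 23 genes, beside 23.5% of all members, with the EPSC libraries between the other two groups for Pfkl at 64.2 and 44.8 FPKM.

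Most genes of a list that low oxygen induces through HIF factors were lower. The list was written after Ndufa4l2 and Bnip3, which it holds, had been seen among the largest decreases, and it shares Slc16a3 and Pdk1 with the glycolysis list and Ndufa4l2, Ddit4, P4ha1 and P4ha2 with other lists counted here. Of its 20 listed genes, 18 reached the level for membership. Of these, 16 were lower, beside 31.8% of all members, and the other 2 were not called. Ndufa4l2 reached 1 FPKM in ESCs only, so its direction was largely fixed by that level. Among the other 17, 15 were lower. Ndufa4l2, a mitochondrial protein that replaces a subunit of the respiratory chain in hypoxia (chr10:127509274-127517154), was at 0.277 and 0.291 FPKM in hybrid cells against 81.2 and 81.7 FPKM in ESCs. Bnip3, a receptor for the removal of mitochondria (chr7:138890836-138909506), was at 4.81 and 3.15 FPKM in hybrid cells against 143 and 138 FPKM in ESCs, 35.2-fold lower. For Ndufa4l2 the log2 fold change was -6.00 ± 0.13 (SE) and for Bnip3 -4.85 ± 0.15 (SE). The oxygen sensor Egln1 was at 3.93 and 4.06 FPKM in hybrid cells and 16.9 and 17.2 FPKM in ESCs, and Vegfa, the growth factor of blood vessels, was at 6.94 and 9.18 FPKM in hybrid cells against 26.6 and 27.4 FPKM in ESCs. The factor gene Hif1a itself, at 30.6 and 29.3 FPKM in hybrid cells against 27.4 and 26.9 FPKM in ESCs, was not called. Epas1, which encodes HIF2α, was at 15.1 and 13.7 FPKM in hybrid cells and 9.95 and 10.4 FPKM in ESCs and was higher, and Vhl, which marks both for degradation, was at 7.93 and 8.94 FPKM in hybrid cells against 18.5 and 16.6 FPKM in ESCs and was lower. Hif1a, Epas1 and Vhl were chosen after their values had been seen. The oxygen level of the cultures was not among the sources used here.

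**Figure D4:**
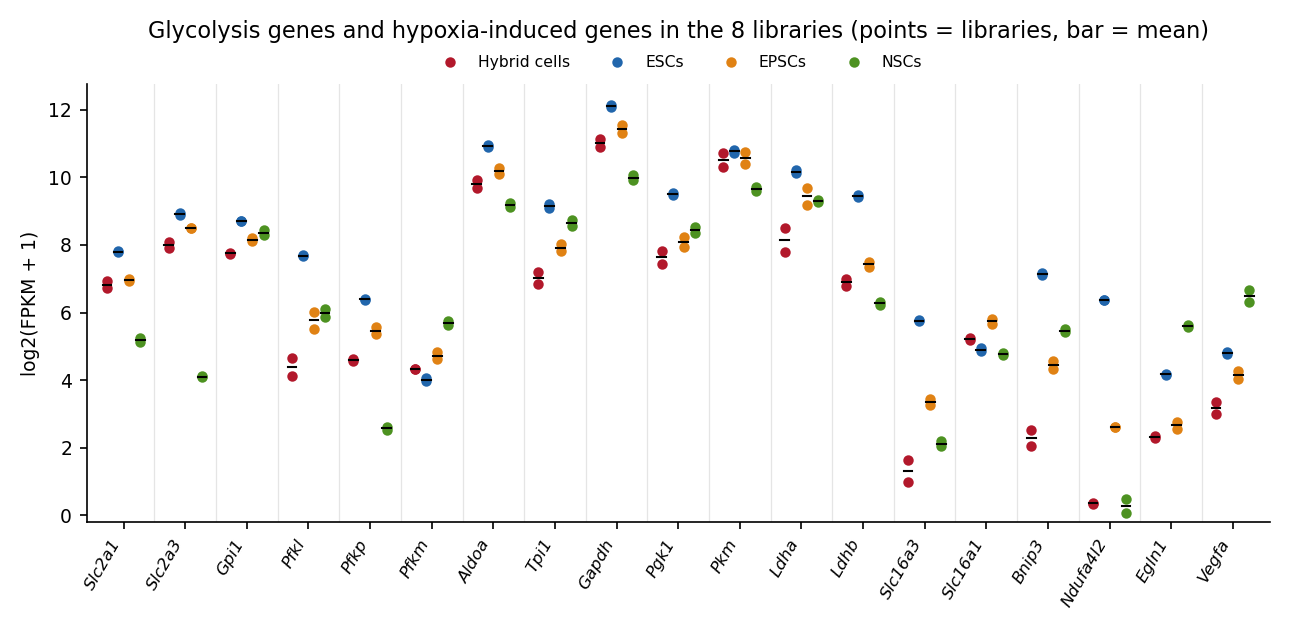
Level of 15 glycolysis and transporter genes and 4 hypoxia-induced genes in each of the 8 libraries as log2(FPKM + 1), with 2 points per cell type and a bar at their mean. ESCs are the highest of the 3 pluripotent cell types for Pfkl, Tpi1, Pgk1, Ldhb, Slc16a3, Bnip3 and Ndufa4l2, and hybrid cells are the lowest of them, whereas Pfkm and Slc16a1 are higher in hybrid cells than in ESCs.

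Subunits of oxidative phosphorylation differed by small amounts. Of 81 genes, 44 were higher and 11 were lower, beside 37% and 31.8% of all members, with a median of 0.26, and with quantile normalization 23 were lower. Uqcr10 of complex III was at 664 and 716 FPKM in hybrid cells against 259 and 243 FPKM in ESCs, Ndufb3 of complex I at 173 and 174 FPKM in hybrid cells and 87.1 and 82.8 FPKM in ESCs and Cox7b of complex IV at 479 and 531 FPKM in hybrid cells against 253 and 247 FPKM in ESCs. None of these 3 overlapped between the groups, and neither did 70 of the 81 genes or 85.4% of all members. Apart from Ndufa4l2, the largest decrease was that of Cox4i2, an isoform of a complex IV subunit used in low oxygen. Cox4i2 was at 0 and 0.424 FPKM in hybrid cells against 3.8 and 3.69 FPKM in ESCs. Ndufa4l2 and Cox4i2 reached 1 FPKM in ESCs only, so their direction was largely fixed by the level for membership. Among the other 79 genes, 44 were higher and 9 were lower.

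Genes of amino acid stress had the lowest median of the 32 lists in the plot of lists, at -1.29. Of 25 genes that the factor ATF4 controls, 19 were lower, 3 were higher and 3 were not called. Over all members, 31.8% were called lower and 37% higher. Of the 25, 3 reached 1 FPKM in ESCs only, and among the other 22, 16 were lower and 3 were higher. Cth, the enzyme that makes cysteine from cystathionine, was at 12.1 and 9.28 FPKM in hybrid cells and 151 and 156 FPKM in ESCs, a log2 fold change of -3.73 ± 0.12 (SE, limma, Benjamini-Hochberg adjusted p = 1.1e-06). Chac1, which degrades glutathione, was at 4.37 and 5.38 FPKM in hybrid cells against 42.9 and 40.2 FPKM in ESCs, and the mitochondrial folate enzyme gene Shmt2 was at 58.7 and 63.8 FPKM in hybrid cells against 193 and 188 FPKM in ESCs. The amino acid transporter gene Slc7a5 was at 44 and 47.1 FPKM in hybrid cells and 114 and 118 FPKM in ESCs. The mRNA of Atf4 itself went the other way, at 250.1 and 276 FPKM in hybrid cells against 159 and 162 FPKM in ESCs, and so did Psat1 of serine synthesis, at 231 and 244 FPKM in hybrid cells against 186 and 181 FPKM in ESCs. Without the first ESC library, without the second one, and with quantile normalization, 1 gene in place of 3 was higher. Against EPSCs, 21 of the 25 genes were lower in hybrid cells, beside 23.5% of all members.

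Of 23 cholesterol synthesis genes, 12 were higher and 3 were lower, beside 37% and 31.8% of all members, and 8 were higher without the first ESC library. Their median log2 fold change was 0.24, and it was 0.12 without the second hybrid library. Targets of p53 were higher in 11 of 22 genes and lower in 4, beside 37% and 31.8% of all members, and the 11 became 7 without the first hybrid library or without the second ESC library. Cdkn1a, the cyclin-dependent kinase inhibitor p21, was at 97 and 74.6 FPKM in hybrid cells and 26.7 and 27.4 FPKM in ESCs, and Ccng1 was at 178 and 147 FPKM in hybrid cells against 68.3 and 65.5 FPKM in ESCs, while the proapoptotic gene Bbc3 was at 19.8 and 11.7 FPKM in hybrid cells against 31.2 and 32.5 FPKM in ESCs and the mRNA of Trp53 was not called (0.17). Among 15 genes of metal, heat and oxidative stress, 9 were higher and 2 were lower, against the same shares of all members. The chaperone gene Hsp90aa1 was at 2219 and 2013 FPKM in hybrid cells and 957 and 909 FPKM in ESCs, and the NRF2 target Nqo1 at 54.8 and 62.7 FPKM in hybrid cells against 22.8 and 21.7 FPKM in ESCs. Of 86 ribosomal protein genes, 30 were higher and 32 were lower, shares near the 37% and 31.8% of all members. Rpl29 stood apart at 1016 and 1017 FPKM in hybrid cells against 119 and 108 FPKM in ESCs, and since this gene has many processed copies, its level is uncertain.

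Most interferon-induced genes were at a lower level in the hybrid libraries. These genes are switched on when an interferon-activated factor complex binds an interferon-stimulated response element, and most of their products act against viruses. Of 38 measured genes, 28 were lower, 4 were higher and 6 were not called, beside 31.8% of all members called lower and 37% called higher, with a median log2 fold change of -0.78. Of the 38, 9 reached 1 FPKM in ESCs only and 1 in hybrid cells only, and among the other 28, 19 were lower and 3 were higher. The number of decreases lay between 25 and 28 over the alternatives. Bst2, which tethers viruses to the cell surface (chr8:71534255-71537472), was at 35.9 and 36.4 FPKM in hybrid cells and 379.5 and 356 FPKM in ESCs, and Xaf1, a proapoptotic protein, was at 1.89 and 2.83 FPKM in hybrid cells against 35 and 31.7 FPKM in ESCs. Oas2, a sensor of double-stranded RNA, was at 2.21 and 2.55 FPKM in hybrid cells against 28 and 28.5 FPKM in ESCs. All 3 were separated, as were 85.4% of all members. Their log2 fold changes were -3.31 ± 0.14 (SE), -3.37 ± 0.13 (SE) and -3.11 ± 0.13 (SE). Irf7, a transcription factor of the pathway, was lower as well, at 1.84 and 2.3 FPKM in hybrid cells and 8.98 and 7.6 FPKM in ESCs. Rtp4, a further antiviral gene, was at 1.34 and 1.48 FPKM in hybrid cells against 16.7 and 17 FPKM in ESCs. The other 4 called members went the other way, namely Lgals3bp, a secreted glycoprotein, at 19.7 and 14.2 FPKM in hybrid cells against 5.98 and 6.48 FPKM in ESCs, Ifi35 at 7.46 and 5.6 FPKM in hybrid cells and 2.45 and 2.75 FPKM in ESCs, Phf11d (0.70) and Ifi44 (0.49). The RNA sensor gene Ddx58 was not called, at 53.9 and 29.6 FPKM in hybrid cells against 28.3 and 28.4 FPKM in ESCs. In comparison with EPSCs the direction was opposite, since 31 of the 38 genes were higher in hybrid cells than in EPSCs and 1 was lower, beside 23.7% and 23.5% of all members, so that hybrid cells lay between the 2 unfused pluripotent lines for Xaf1, which was at 0.832 and 0.913 FPKM in EPSCs. For Bst2, in contrast, EPSCs were above hybrid cells, at 95.2 and 67.5 FPKM. Of 12 genes of MHC class I presentation, 3 were higher and 4 were lower, beside 37% and 31.8% of all members, and 2 were lower without the first ESC library. Of the 12, 5 reached 1 FPKM in hybrid cells only, and among the other 7, 1 was higher and 4 were lower. The heavy chain gene H2-D1 was at 7.03 and 5.47 FPKM in hybrid cells against 14 and 12.9 FPKM in ESCs, and B2m, the light chain, was at 80.1 and 64 FPKM in hybrid cells and 48 and 49.4 FPKM in ESCs.

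The response element (GAAANNGAA, either strand) was found in 18 of the 28 interferon-induced members (64.3%) with a RefSeq promoter, against 9.76% of all 27025 genes and 8.11% of the 9577 members in that table. Of the 18 genes with a promoter that were lower, 12 held it. The promoters of the 4 decreased genes with the largest change among those holding the element are shown with the element in capitals, since these letters were found in most promoters of the group. They are Bst2 (chr8:71537423-71537722, minus strand), the OAS family members Oas1c (chr5:120812465-120812764, minus strand) and Oas1g (chr5:120887564-120887863, minus strand), and the helicase Ddx60 (chr8:61927837-61928136, plus strand), all in GRCm38.p6.
Bst2: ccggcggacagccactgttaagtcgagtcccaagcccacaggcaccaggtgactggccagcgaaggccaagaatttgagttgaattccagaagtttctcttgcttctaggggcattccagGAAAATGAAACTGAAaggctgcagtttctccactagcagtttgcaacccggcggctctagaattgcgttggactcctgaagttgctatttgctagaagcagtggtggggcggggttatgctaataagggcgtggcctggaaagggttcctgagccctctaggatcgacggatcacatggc
Oas1c: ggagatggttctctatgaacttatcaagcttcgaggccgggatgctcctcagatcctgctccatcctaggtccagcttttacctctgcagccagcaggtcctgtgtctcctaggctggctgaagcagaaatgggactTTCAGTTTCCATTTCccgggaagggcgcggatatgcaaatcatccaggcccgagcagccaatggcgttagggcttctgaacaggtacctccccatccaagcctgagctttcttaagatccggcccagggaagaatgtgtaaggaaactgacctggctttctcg
Oas1g: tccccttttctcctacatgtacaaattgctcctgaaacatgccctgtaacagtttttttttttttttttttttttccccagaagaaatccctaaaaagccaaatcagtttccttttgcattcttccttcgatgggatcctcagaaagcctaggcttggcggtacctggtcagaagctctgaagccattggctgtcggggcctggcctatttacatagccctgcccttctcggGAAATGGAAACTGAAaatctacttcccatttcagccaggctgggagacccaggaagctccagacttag
Ddx60: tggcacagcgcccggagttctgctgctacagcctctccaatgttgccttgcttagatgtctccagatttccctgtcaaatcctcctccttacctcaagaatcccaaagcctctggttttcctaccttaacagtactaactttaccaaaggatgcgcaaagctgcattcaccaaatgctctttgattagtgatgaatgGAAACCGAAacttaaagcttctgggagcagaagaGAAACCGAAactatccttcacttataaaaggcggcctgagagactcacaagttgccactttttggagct
In Bst2, Oas1c and Oas1g the capitals are overlapping matches that begin 130, 113 and 18 bases before the start, and in Ddx60 the matches begin 53 and 19 bases before it. Oas1c was at 0.84 and 0.781 FPKM in hybrid cells against 4.38 and 3.9 FPKM in ESCs, and Oas1g was at 2.7 and 3.14 FPKM in hybrid cells against 7.44 and 7.1 FPKM in ESCs. Neither gene overlapped between the groups, as was so for 85.4% of all members. Oas1c reached 1 FPKM in ESCs only, so its direction was largely fixed by the level for membership. The element lies nearer to the start in Oas1g than in Oas1c.

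Genes of fibroblasts and of the extracellular matrix were higher in hybrid cells. Of 22 fibroblast markers, 20 were higher and 2 were not called, beside 37% of all members called higher, with a median log2 fold change of 2.00. Of the 22, 8 reached 1 FPKM in hybrid cells only, and among the other 14, 12 were higher. The summed level of the list was 533 and 383 FPKM in the hybrid libraries, 57 and 60.9 FPKM in the ESC libraries and 166 and 158 FPKM in the EPSC libraries. Lum, a proteoglycan of fibroblasts, was at 18.4 and 16.7 FPKM in hybrid cells and 0 and 0.0178 FPKM in ESCs, and Dcn, another one, was at 41.7 and 33.9 FPKM in hybrid cells against 1.03 and 0.874 FPKM in ESCs. Thy1, a surface antigen of fibroblasts, was at 42.5 and 24.5 FPKM in hybrid cells against 4.4 and 5.01 FPKM in ESCs, and Dpt was at 2.6 and 2.12 FPKM in hybrid cells and 0.0635 and 0 FPKM in ESCs. Within the hybrid group the first library was the higher one for each of these 4 genes. Feeder cells were present in both groups, the share of feeder RNA per library was not measured, and its part in these and the following lists was not tested.

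Collagen genes showed the same direction. Of 44 listed chains, 22 reached the level for membership. Of these, 17 were higher and 4 were lower, beside 37% and 31.8% of all members. Of the 22, 9 reached 1 FPKM in hybrid cells only and 3 in ESCs only, and among the other 10, 8 were higher and 1 was lower. Col3a1, a fibrillar collagen (chr1:45311538-45349706), was at 43.6 and 33.4 FPKM in hybrid cells against 0.477 and 0.527 FPKM in ESCs, a log2 fold change of 4.71 ± 0.12 (SE, limma, Benjamini-Hochberg adjusted p = 7.9e-07), and Col1a1 was at 61 and 46.2 FPKM in hybrid cells against 1.86 and 2.06 FPKM in ESCs. The basement membrane chains Col4a1 and Col4a2 differed less, by 0.44 and 0.67, and Col18a1 was not called (-0.16). The cartilage collagen chains Col9a2 and Col9a3 were lower, with log2 fold changes of -0.77 and -1.10. Among 33 other matrix genes, 21 were higher and 7 were lower, against the same shares, and 7 of the 33 reached 1 FPKM in hybrid cells only. The decreases included enzymes that hydroxylate collagen, with P4ha1 at 7.46 and 3.92 FPKM in hybrid cells and 15.4 and 15.8 FPKM in ESCs, P4ha2 at 5.45 and 5.18 FPKM in hybrid cells against 14.9 and 15 FPKM in ESCs and Plod1 at 8.07 and 6.94 FPKM in hybrid cells against 16.6 and 17.7 FPKM in ESCs. The collagen chaperone Serpinh1 was higher, at 94.8 and 81.5 FPKM in hybrid cells and 27.3 and 27.4 FPKM in ESCs, and so was Sparc, at 223 and 215 FPKM in hybrid cells against 62.8 and 63.1 FPKM in ESCs.

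Genes used in real-time PCR to tell EPSCs from ESCs, taken from earlier work on EPSCs, were examined in the same way. Of the 7, 6 were higher in hybrid cells than in ESCs, beside 37% of all members, and 4 of the 7 reached 1 FPKM in hybrid cells only. Postn, a secreted adhesion protein, was at 41.1 and 31.1 FPKM in hybrid cells against 0.409 and 0.608 FPKM in ESCs, and Bgn, a small proteoglycan, at 131 and 98.5 FPKM in hybrid cells and 11.9 and 13.4 FPKM in ESCs. Tnc, a matrix glycoprotein, differed by 4.07 on the log2 scale. Csf1, the macrophage growth factor, was at 13.1 and 6.41 FPKM in hybrid cells against 0.55 and 0.844 FPKM in ESCs, and Vcam1, an adhesion receptor, at 5.85 and 3.34 FPKM in hybrid cells against 0.231 and 0.168 FPKM in ESCs. Steap4, a metalloreductase, was at 1.8 and 1.96 FPKM in hybrid cells and 0.094 and 0.0228 FPKM in ESCs. In these 6 genes no library overlapped between the groups, as was so for 85.4% of all members. Esrp1, an epithelial splicing regulator, was at 10.5 and 6.81 FPKM in hybrid cells against 7.55 and 7.41 FPKM in ESCs and was not called. The same 6 genes were higher in hybrid cells than in EPSCs, beside 23.7% of all members. Esrp1 was lower, at 22.1 and 16 FPKM in EPSCs. As 4 of the 7 were members through hybrid cells only, this count is given as a description. By real-time PCR, the study reported Steap4 and Csf1 above EPSCs in hybrid cells and Tnc, Bgn, Vcam1 and Postn at a similar level. Summed over the 7, the levels were 279 and 203 FPKM in hybrid cells. The sums were 105 and 99 FPKM in EPSCs and 281 and 289 FPKM in NSCs. Of the 6, Postn, Bgn and Tnc also count as matrix genes. These matrix genes, like the fibroblast markers, were higher in the first hybrid library than in the second. The summed pluripotency markers were also higher in the first library, at 2029.6 FPKM against 1715 FPKM in the second. The part of the feeder cells in these levels was not tested. Csf1 and Vcam1 were likewise higher in the first hybrid library, whereas Steap4 was not.

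Mesenchymal genes were higher in 13 of 17 cases, beside 37% of all members and with 3 of the 17 at 1 FPKM in hybrid cells only, among them Vim, an intermediate filament, at 655 and 544 FPKM in hybrid cells against 218 and 208 FPKM in ESCs, and Cd44 at 18.3 and 12 FPKM in hybrid cells and 1.57 and 1.54 FPKM in ESCs, whereas the repressor Snai1 was lower at 4.5 and 4.43 FPKM in hybrid cells against 6.42 and 7.35 FPKM in ESCs, a decrease that was not called without the second ESC library. Of 19 epithelial genes, 9 were lower and 7 were higher, the latter a share near the 37% of all members, of which 31.8% were lower. The tight junction genes Cldn3 and Cldn4 were at 0.238 and 1.29 FPKM in hybrid cells against 5.74 and 6.33 FPKM in ESCs for Cldn3 and at 20.4 and 25.6 FPKM in hybrid cells and 89.2 and 89.7 FPKM in ESCs for Cldn4. Cdh1, the E-cadherin gene, was lower by a small amount (-0.26), at 88.5 and 102 FPKM in hybrid cells against 113 and 115 FPKM in ESCs. The epithelial protease inhibitor Spint1 and the factor Ovol2 were higher, by 1.35 and 1.27. Targets of YAP were counted as well, with 10 higher and 5 lower of 18, beside 37% and 31.8% of all members. The 5 decreases became 2 without the second ESC library and 3 without the first one or without the first hybrid library. Ctgf was at 32.6 and 50.3 FPKM in hybrid cells against 74.4 and 75.6 FPKM in ESCs and Cav1 at 13.9 and 10.2 FPKM in hybrid cells and 0.991 and 1.24 FPKM in ESCs.

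Among trophectoderm genes, 20 of 26 reached the level for membership, and the lineage factors Cdx2, Elf5 and Hand1 did not. Cdx2 was at 1.07 and 0.249 FPKM in hybrid cells against 0.11 and 0.223 FPKM in ESCs. Of the 20, 6 were higher and 8 were lower, near the 37% and 31.8% of all members. Krt8 and Krt19, keratins of simple epithelia, were at 5.55 and 5.44 FPKM in hybrid cells against 11.3 and 10.4 FPKM in ESCs for Krt8 and at 1.22 and 0.941 FPKM in hybrid cells and 7.37 and 6.93 FPKM in ESCs for Krt19, and the factor Tead4 was at 9.52 and 7.95 FPKM in hybrid cells against 6.48 and 5.98 FPKM in ESCs. Among 13 primitive endoderm genes, 7 were higher and 5 were lower, beside the same shares of all members. The increases were those of Pdgfra and of the matrix genes Sparc, Serpinh1, Lamb1, Lamc1, Col4a1 and Col4a2. Of the 13, 3 reached 1 FPKM in ESCs only and 1 in hybrid cells only, and among the other 9, 6 were higher and 2 were lower. Among the 4 genes that reached it in a single group, the factor Gata4 was at 0.117 and 0.193 FPKM in hybrid cells against 1.78 and 1.54 FPKM in ESCs and the proteoglycan gene Srgn at 0.345 and 0.181 FPKM in hybrid cells and 6.03 and 7.64 FPKM in ESCs, while Pdgfra, also a fibroblast receptor, was at 2.42 and 2.21 FPKM in hybrid cells against 0.407 and 0.439 FPKM in ESCs. Gata6 and Sox17 were below the level for membership. Of 12 formative and primitive streak genes, 3 were higher and 3 were lower, both shares below those of all members. The increases were those of T and Gsc, which reached 1 FPKM in hybrid cells only, and of Zic5, at 4.96 and 3.41 FPKM in hybrid cells against 2.24 and 1.96 FPKM in ESCs. The formative factors Otx2 and Pou3f1 were lower, at 3.94 and 3.04 FPKM in hybrid cells and 14.2 and 12.3 FPKM in ESCs for Otx2 and at 1.05 and 1.17 FPKM in hybrid cells against 5.8 and 5.99 FPKM in ESCs for Pou3f1, and Eomes was not called, at 2.41 and 3.71 FPKM in hybrid cells against 2.55 and 3.18 FPKM in ESCs. Leaving out the second hybrid library raised the increases in that list from 3 to 6.

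Genes of the somatic partner were far below their NSC level, and 16 of 24 NSC markers were below the level for membership. Of the 8 that were members, 4 were higher and 4 were lower than in ESCs, beside 37% and 31.8% of all members, and 3 reached 1 FPKM in hybrid cells only. Fabp7, a lipid-binding protein of radial glia, was at 0.0761 and 0.238 FPKM in hybrid cells and 0 and 0.0569 FPKM in ESCs, while the NSC libraries were at 2798 and 2709 FPKM. Nes, the filament protein of neural progenitors, was at 2.41 and 2.38 FPKM in hybrid cells against 4.06 and 4.03 FPKM in ESCs, while the NSC libraries were at 114 and 119.6 FPKM. Olig1 and Olig2, factors of the oligodendrocyte lineage, were higher in hybrid cells than in ESCs, at 5.29 and 5.99 FPKM in hybrid cells against 0.341 and 0.203 FPKM in ESCs for Olig1 and at 4.06 and 3.56 FPKM in hybrid cells and 0.0274 and 0.0746 FPKM in ESCs for Olig2, but the EPSC libraries, at 8.6 and 9.82 FPKM for Olig1 and 5.89 and 6.09 FPKM for Olig2, were above the hybrid level. Of 39 Hox genes, 5 were members, of which 3 were higher and 2 were not called, beside 37% and 31.8% of all members called higher and lower. Of the 5, however, 3 reached 1 FPKM in hybrid cells only and 1 in ESCs only. Hoxb9, which reached it in both groups, was higher in hybrid cells, at 3.7 and 4.54 FPKM in hybrid cells against 1.07 and 1.38 FPKM in ESCs. Hoxc6, a member through its level in hybrid cells alone, was at 2.95 and 2.44 FPKM in hybrid cells against 0.218 and 0.214 FPKM in ESCs, above the EPSC libraries, at 0.491 and 0.691 FPKM, and listed at 0 in both NSC libraries.

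Of 10 listed genes of the sex chromosomes, 8 were higher and 1 was lower, beside 37% and 31.8% of all members. Kdm5d and Xist reached 1 FPKM in hybrid cells only, so their direction was fixed by the level for membership, and among the other 8, 6 were higher and 1 was lower. Kdm5d, a histone demethylase gene of the Y chromosome, was at 3.56 and 3.96 FPKM in hybrid cells and 0.0175 and 0.0192 FPKM in ESCs, whereas the Y-linked genes Uty, Eif2s3y and Ddx3y were present in both groups, at 6.01 and 5.44 FPKM in hybrid cells against 3.85 and 3.9 FPKM in ESCs for Uty and 60.6 and 62.2 FPKM in hybrid cells against 43.9 and 44.3 FPKM in ESCs for Eif2s3y. Xist, the RNA that silences an X chromosome, was at 2.14 and 1.52 FPKM in hybrid cells and 0.276 and 0.243 FPKM in ESCs, and its antisense partner Tsix was at 3.81 and 5.7 FPKM in hybrid cells against 10 and 10.9 FPKM in ESCs. The strand setting of the counting is not given in the sources used here, so reads of Xist and Tsix may not have been told apart.

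The direction of change depended on the chromosome. The median log2 fold change of members was lowest on chromosome 8, at -0.45 over 652 genes, of which 78.2% were lower in hybrid cells and 65.3% were called lower, against 31.8% of all members. Chromosomes 6, 7 and 10 followed at -0.21, -0.20 and -0.14. Apart from the 6 members on the Y chromosome, with a median of 1.40, the highest medians were those of chromosome 16 at 0.33, chromosome 1 at 0.32 and chromosome 4 at 0.30, and the X chromosome was at 0.25. When single libraries were compared, the median of chromosome 8 lay between -0.46 and -0.43 over the 4 pairs of a hybrid and an ESC library, so the pattern was shared by both libraries of each group. Against EPSCs, chromosome 8 was at -0.15, chromosome 16 at 0.23, chromosome 11 at 0.20 and chromosome 13 at -0.20. In that comparison 9 chromosomes, 1, 2, 4, 9, 11, 12, 16, 19 and X, had medians from 0.07 to 0.23, and the other 11, leaving out Y, had medians from -0.20 to -0.12. The comparisons share the hybrid libraries and are given side by side only. Scaling every library to the same sum moved chromosome 8 to -0.54 and chromosome 16 to 0.27. The number of copies of each chromosome was not measured in these libraries, and its part in these medians was not tested.

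**Figure D5:**
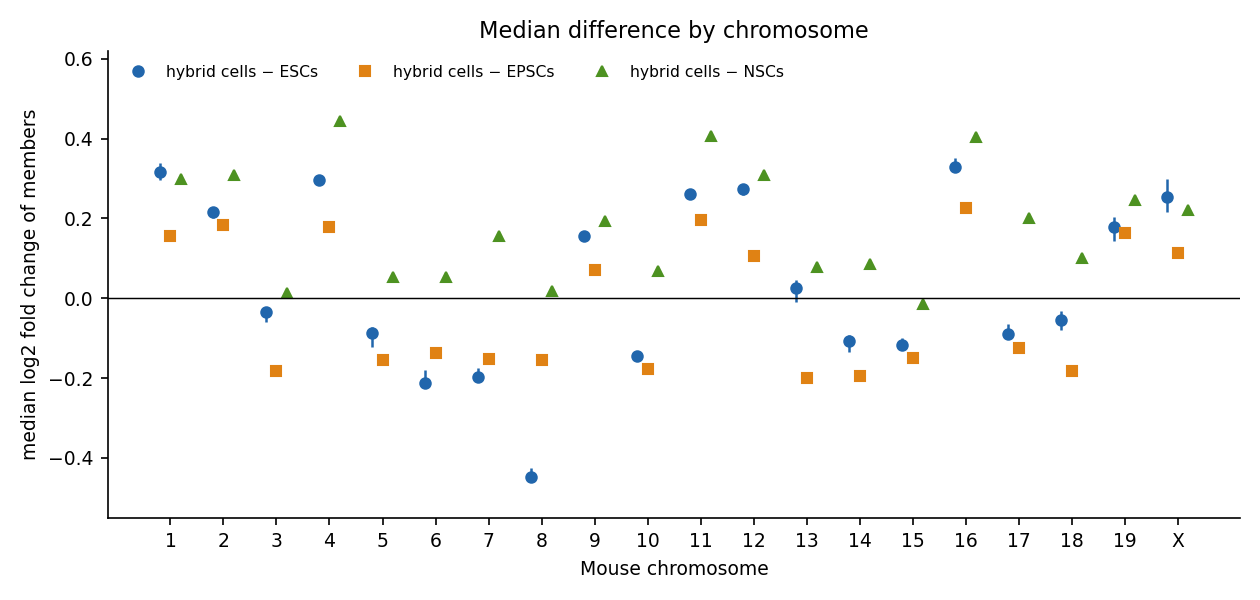
Median log2 fold change of the members on each chromosome but Y (y axis, log2(FPKM + 1) scale) for hybrid cells against ESCs (circles), EPSCs (squares) and NSCs (triangles), with lines spanning the medians of the 4 single pairs of hybrid and ESC libraries. Chromosome 8 is lowest against ESCs at -0.45, and the squares fall into a group above 0 and a group below 0.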

How the data were processed

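Poly-A RNA of hybrid cells, ESCs, EPSCs and NSCs was sequenced in paired ends with a stranded kit, 2 libraries each. Per the labels and the study's methods, reads were aligned to mm10 with STAR 2.7.9a, and the authors deposited FPKM values from Cufflinks and Cuffnorm 2.2.1. Library normalization, annotation release and strand setting are not given in the sources used here. Values were used as deposited. Genes with a mean of at least 1 FPKM in hybrid cells or ESCs were members. limma 3.58.1 in R 4.3.3 was fitted with trend to log2(FPKM + 1) of all 8 libraries and the 13239 genes with a mean of at least 1 FPKM in any of the 4 groups, and p-values were adjusted over them by Benjamini-Hochberg. A gene was called at an adjusted p under 0.05. The script was tested on simulated data. Fold changes on this scale understate those of low genes. Other steps were run in Python 3.11.15 with numpy 2.4.6 and pandas 2.3.3.

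Depth was derived from the steps between low values of 2247 genes, with an assumed fragment of 200 bases. Names and coordinates come from RefSeq (GRCm38.p6), which matched 24235 of 24354 symbols and 11986 members. Promoters were read from RefSeq for 9577 members. Named genes are the 10 largest changes in each direction that passed limma and the fold rule with libraries that did not overlap, the members of lists of up to 25 measured genes, the 4 largest called changes in each direction in longer lists, the real-time PCR genes and the cell type markers. Outside this rule, Eif3j2, Rhox5, Dazl, Piwil2, Hormad1, Mael, Sycp1, Ddx4, Irf7, Ddx58, Oas1c, Oas1g, Ddx60, Sparc, Serpinh1 and the hypoxia, Xlr and Rhox lists were chosen after their values were seen. The members and all lists were chosen with earlier results of these data known. Alternatives were 2 pseudocounts, 2 filters, 2 scalings, other thresholds, a replicate block, a fit of the 4 libraries alone and leaving out each library. The filter of at least 3 FPKM removes list members, and ranges given for the counts of a list do not cover it. Some genes that the rule names are not reported here.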

Additional observations from a re-analysis of the deposited data

How the results depend on the processing

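The counts of genes called higher and lower stayed within 1.5 times their values under all alternatives run, and leaving out each library in turn gave 3598 to 4362 higher and 3069 to 3737 lower. Of genes changed over 2-fold, 962 to 1058 were higher and 797 to 867 lower when a library was left out, and 462 to 492 and 392 to 430 passed the fold rule. With a pseudocount of 0.1, 1236 genes in place of 816 were lower over 2-fold, since the smaller constant stretches the changes of low genes. With thresholds of 2 in place of 3, both of which the study names, the fold rule took 1141 genes higher and 1035 lower. Scaling each library to the same sum moved the share of calls that were higher from 53.8% to 48.7% and the median of all members to -0.02, and quantile normalization gave 50.1%. Asns, which was called higher at 0.18, changed sign to -0.065 with quantile normalization. Nanog and Nr0b1, which were not called, also changed sign and were then called: Nanog at -0.16 with quantile normalization (limma, adjusted p = 0.0498, against 0.388 to 0.912 otherwise), and Nr0b1, at -0.32 to 0.24 when a library was left out, being called lower without the first hybrid library and higher, at 0.24, without the second. The cause was not tested. With the replicate number as a block, 8385 genes were called, of which 8166 were among the 8266. Same-numbered hybrid and ESC libraries deviated from their group means with a correlation of 0.0266 across genes. The EPSC and NSC libraries were not compared in this way. This value cannot show whether same-numbered libraries were handled together. Depth limits low genes: below 0.0511 to 0.0734 FPKM on a 2-kb transcript, fewer than 3 fragments were counted.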
